A study of Mus musculus with 8 samples.

Results

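The type I interferon response genes examined here are 37 mouse genes that cells switch on when interferon alpha or beta reaches them. Their symbols were listed, and 37 of 37 were found among the 29426 gene symbols of a table of read counts from sorted spleen CD8+ T cells. Of those symbols, 12313 had enough reads to be tested, and these included 37 of the 37 listed genes.

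The table holds 8 libraries in 4 groups of 2, named by a genotype label (mCre or WT) and a subset label (TN or MP): mCre-TN, WT-TN, mCre-MP and WT-MP. The title of the series joins the microRNA family miR-29 with Cre, the recombinase used to delete or switch on engineered alleles. Which allele mCre stands for, what drives the recombinase, the strain, and which of the adult or neonatal spleens named in the protocol gave each library, the sources used here do not state. They also do not say whether the libraries of a group came from separate animals, so p-values measure the spread between libraries, which may be technical. All groups were enriched for CD8 on magnetic beads and sorted by CD8, CD4, CD44 and CD122. High CD44 and CD122 mark memory-phenotype CD8+ T cells (MP, called VM in the design text), and low levels mark naive cells (TN). Whether the sorted cells had met foreign antigen was not tested by this sort.

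Total counts were 30057658 and 19304257 in mCre-TN, 13479586 and 18585716 in WT-TN, 18351092 and 24566129 in mCre-MP, and 23386348 and 21877937 in WT-MP. Levels are given as CPM, the count divided by the library total and scaled to a common total, and the values of a pair are those of replicates 1 and 2. The RNA was taken from whole sorted populations, so fewer cells that express a gene and less of its RNA per cell cannot be told apart. The 5 CD8 T cell markers Cd8a, Cd8b1, Cd3d, Cd3e and Cd3g summed to between 4498 and 4894 CPM in the 8 libraries. Cd44 and Il2rb, which encodes CD122, summed to 1228 to 1524 CPM in the MP libraries and 197 to 221 CPM in the TN libraries.

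Type I interferons bind a receptor made of IFNAR1 and IFNAR2, whose kinases JAK1 and TYK2 phosphorylate STAT2. STAT2 and IRF9 act in the complex ISGF3, which binds interferon-stimulated response elements in promoters and turns on genes that sense viral RNA, block its translation or copying, and adjust the strength of the response itself. In T cells a low, tonic interferon signal keeps many of these genes on at a basal level without infection.

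The response element carries repeats of GAAA separated by 2 bases, and the promoters of the set were searched for such runs. RefSeq promoters (GRCm38.p6, 250 bases before to 50 bases after a start site) were found for 28 of the 37 genes. GAAA, any 2 bases and GAAA, read on either strand and with overlaps allowed, occurred in 13 of these 28 (46.4%) and in 1079 of 27025 genes with a promoter in the same set (3.99%). The same run followed by CT occurred in 7 of 28 (25%) and in 82 of 27025 (0.303%). Such a match is a run of letters, not a measured binding site. Isg20, Samd9l, Cmpk2, Irf7, Irf9 and Xaf1 had no match, though the test described below called each higher in mCre-MP than in WT-MP. The windows shown come from 8 of the 13 genes with a match. Among them, Ifit1, Ifit3, Isg15 and Rsad2 were called between genotypes in neither subset alone. In 8 windows of 40 bases, printed 5′ to 3′ on the strand of the gene, capitals mark the matches:
Ifit1, chr19:34640779-34640818, plus strand: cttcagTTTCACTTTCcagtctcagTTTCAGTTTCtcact
Ifit3, chr19:34583392-34583431, plus strand: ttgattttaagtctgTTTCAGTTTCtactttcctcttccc
Isg15, chr4:156200866-156200905, minus strand: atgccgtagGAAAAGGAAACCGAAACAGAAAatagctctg
Oas1a, chr5:120907518-120907557, minus strand: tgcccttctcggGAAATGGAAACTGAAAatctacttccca
Oas3, chr5:120777710-120777749, minus strand: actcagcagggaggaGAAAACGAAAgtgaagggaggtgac
Rsad2, chr12:26456548-26456587, minus strand: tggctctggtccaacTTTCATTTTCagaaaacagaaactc
Stat2, chr10:128270261-128270300, plus strand: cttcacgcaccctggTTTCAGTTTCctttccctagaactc
Eif2ak2, chr17:78882530-78882569, minus strand: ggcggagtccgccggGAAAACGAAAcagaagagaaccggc

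The matches shown lay at different distances from the start site, between base −222 for Stat2 and base 27 for Eif2ak2, counted from the start of transcription in RefSeq. Ifit1, Ifit3 and Oas1a each held 2 matches in the promoter, of which the window of Ifit3 shows the match nearest the start site, and Isg15 held 3 overlapping ones. The window of Ifit3b, a close copy of Ifit3, had the same 40 letters as that of Ifit3 (chr19:34607788-34607827, plus strand).

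Set against WT, the mCre libraries had higher levels of nearly the whole gene set in both subsets. In MP, 21 of the 37 genes were called higher (edgeR's quasi-likelihood test, adjusted p under 0.05 over all 12313 genes) and 0 lower, when 2.08% of all tested genes were called higher and 1.97% lower. In TN, 14 were called higher and 1, Epsti1, lower, when 1.55% of all genes were called higher and 1.92% lower. The median log2 fold change of the 37 genes was 0.84 in MP and 0.69 in TN, against medians of 0.0004 and −0.001 over all tested genes. With both subsets in a single model of genotype and subset, 35 of the 37 were called higher in mCre and 0 lower, when 5.06% of all genes were called higher and 5.97% lower. The genes outside those 35 were Epsti1 and Nmi. That model treats the TN and MP libraries of a genotype as independent. The sources used here do not state whether they came from the same animals. If they did, the calls across subsets rest on fewer independent units than libraries. In what follows, changes between genotypes are log2 fold changes of mCre over WT with their standard error (SE). The SE was derived from the test, as the absolute log2 fold change divided by the square root of the test's F statistic.

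Both mCre-MP libraries lay above both WT-MP libraries for 37 of the 37 genes, an order that 24.1% of all tested genes showed. In TN, both mCre libraries lay above both WT libraries for 35 genes, against 25.2% of all tested genes. The calls of the subsets overlapped: 13 genes were called higher in both, which is 92.9% of the TN calls and 61.9% of the MP calls. The comparisons use different libraries but a single estimate of spread, so the calls are not independent. The same overlap over all tested genes is not given here. The number called in TN was small beside its unadjusted count (34 genes higher at an unadjusted p under 0.05), and it moved with the libraries and the tool. It was 5 with WT-TN replicate 1 left out, 8 with WT-TN replicate 2 left out and 24 without either mCre-MP library. DESeq2 called 25 genes of the set higher in TN, and 174 of all 12313 tested genes. With no filter on low counts edgeR called 26 of the set higher, and 388 of all 19137 genes. When only the TN libraries were fitted it called 23 of the set, and 220 of all 11714 genes. In MP the count was 10 without either WT-MP library and between 16 and 28 without any of the others. The calls that held under all 16 alternatives were those of Rtp4, Eif2ak2, Samd9l and Trim30a in TN, and of these 4 genes with Ddx58, Ifih1, Irf9 and Isg20 in MP. Each of the other calls was lost with at least 1 library left out, at adjusted p of up to 0.285 in TN (Epsti1) and 0.488 in MP (Oas1a).

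**Figure D1:**
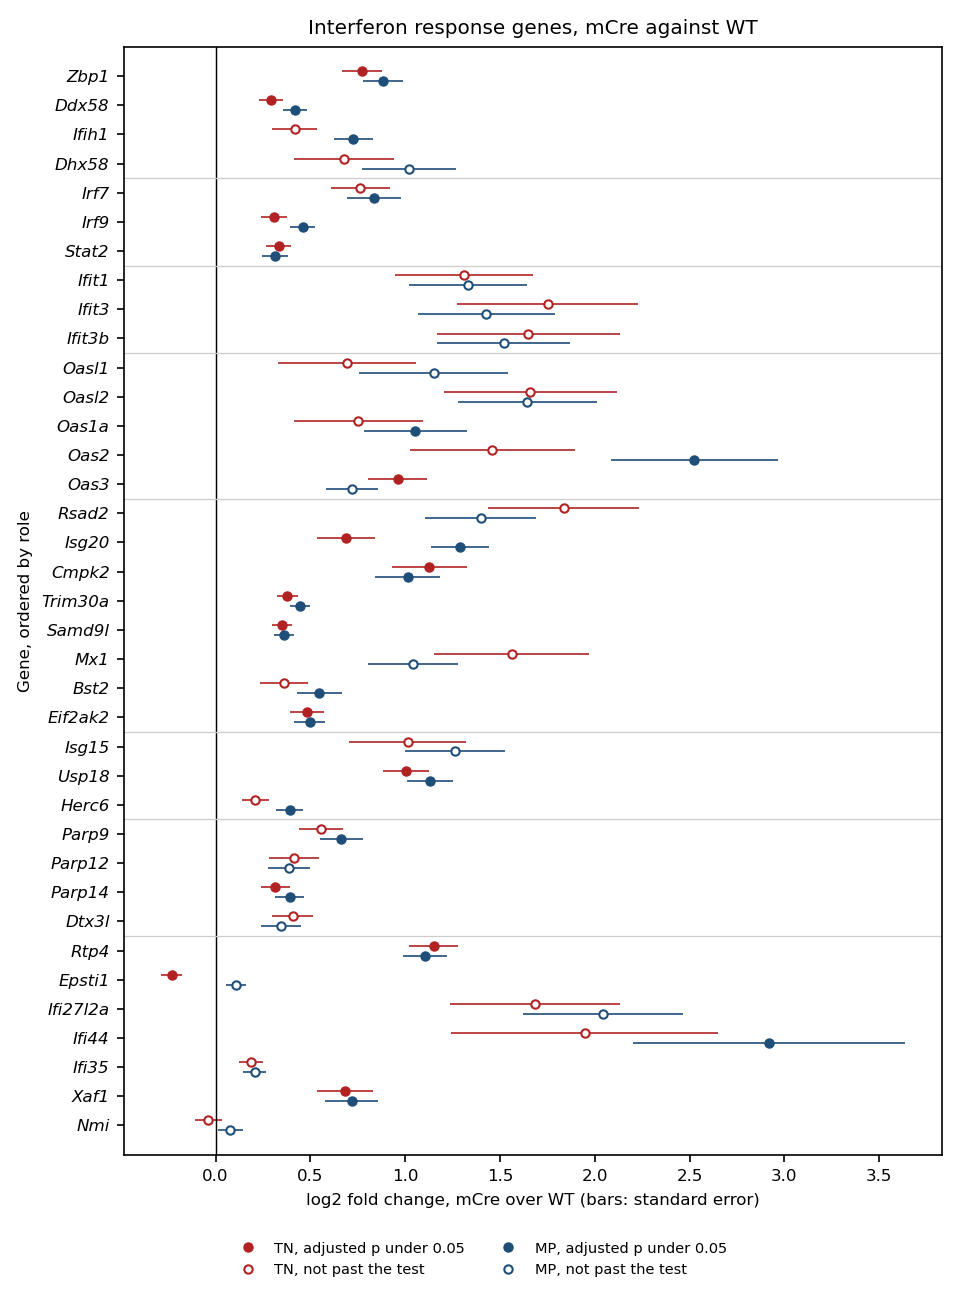
Log2 fold change of mCre over WT for each of the 37 genes in TN and in MP, with genes ordered by role and bars giving the standard error; filled points were called at an adjusted p under 0.05. The points lie to the right of 0 except Epsti1 and Nmi in TN, and the genes with the largest fold changes have the widest bars.

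Many of the large changes did not pass the test within a subset. In TN, 13 genes were more than 2-fold higher in mCre, but only 3 of these (Cmpk2, Rtp4 and Usp18) were called, with a median standard error of 0.409 on the log2 scale against 0.107 for the rest of the set. In MP, 17 genes were more than 2-fold higher and 7 of them were called, with median standard errors of 0.294 and 0.0786. Across subsets, 13 genes were more than 2-fold higher and 13 of these were called.

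Among the cytosolic nucleic acid sensors, which detect viral RNA or unusual DNA and RNA forms and start interferon production, 4 of 4 were called higher across subsets. Zbp1, which binds left-handed nucleic acids and can start necroptosis, was at 123 and 150.4 CPM in mCre-TN, against 73.7 and 83.5 CPM in WT-TN, and at 137 and 126 CPM in mCre-MP, against 72.9 and 69.8 CPM in WT-MP. Ddx58, which encodes the RNA sensor RIG-I, was at 169 and 173 CPM in mCre-TN, against 134 and 142 CPM in WT-TN, and at 219 and 188 CPM in mCre-MP, against 154 and 149.8 CPM in WT-MP. Ifih1, which encodes the long double-stranded RNA sensor MDA5, was at 25.6 and 28.9 CPM in mCre-TN, against 19 and 21 CPM in WT-TN, and at 57.2 and 45.3 CPM in mCre-MP, against 29.6 and 32.2 CPM in WT-MP. Within each subset the mCre libraries lay above the WT libraries for these 3 genes without overlap. Zbp1 rose in TN by a log2 fold change of 0.77 (SE 0.106, adjusted p = 0.00775) and in MP by 0.88 (SE 0.105, adjusted p = 0.00312). Ddx58 rose by 0.29 (SE 0.0633, adjusted p = 0.0125) in TN and by 0.42 (SE 0.0622, adjusted p = 0.00044) in MP. The change of Ifih1 was called in MP at 0.73 (SE 0.103, adjusted p = 0.000632) and was 0.42 (SE 0.117, adjusted p = 0.064) in TN. Dhx58, the regulatory relative LGP2, was called across subsets alone (0.86, SE 0.185, adjusted p = 0.0379), with group means of 24.4 ± 5.16 CPM in mCre-TN and 15.3 ± 1.15 CPM in WT-TN, and 35.2 ± 10.1 CPM in mCre-MP and 17.2 ± 1.91 CPM in WT-MP (± SD of 2 libraries). The annotation places an antisense transcript over Dhx58, and its reads could not be told apart from it because the sources used here do not state the strand setting of the counting.

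All 3 transcription factors of the set rose in mCre. Stat2 and Irf9 encode parts of ISGF3, and Irf7 is the factor that amplifies transcription of the interferon genes. Stat2 was at 76.7 and 84.8 CPM in mCre-TN, against 62.9 and 63.7 CPM in WT-TN, and at 65.1 and 67.2 CPM in mCre-MP, against 50.5 and 56.2 CPM in WT-MP. Irf9 was at 119.7 and 128 CPM in mCre-TN, against 91.9 and 105 CPM in WT-TN, and at 120.1 and 119.6 CPM in mCre-MP, against 82.4 and 92.2 CPM in WT-MP. Irf7 was at 92.7 and 84.1 CPM in mCre-TN, against 51.1 and 52 CPM in WT-TN, and at 138 and 103 CPM in mCre-MP, against 64.3 and 70.8 CPM in WT-MP. Both mCre libraries exceeded both WT libraries of their subset for each of these genes. The log2 fold changes of Stat2 were 0.33 (SE 0.0671, adjusted p = 0.00792) in TN and 0.31 (SE 0.0672, adjusted p = 0.0101) in MP. Irf9 changed by 0.31 (SE 0.0665, adjusted p = 0.0142) in TN and by 0.46 (SE 0.066, adjusted p = 0.000428) in MP. Irf7 was called in MP (0.84, SE 0.144, adjusted p = 0.0425) and not in TN, where its log2 fold change was 0.76 (SE 0.153, adjusted p = 0.0696). Exons of Irf9 overlap those of Rnf31 on the same strand and exons of Irf7 overlap those of Phrf1 on the other, so their counts are uncertain to that extent.

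**Figure D2:**
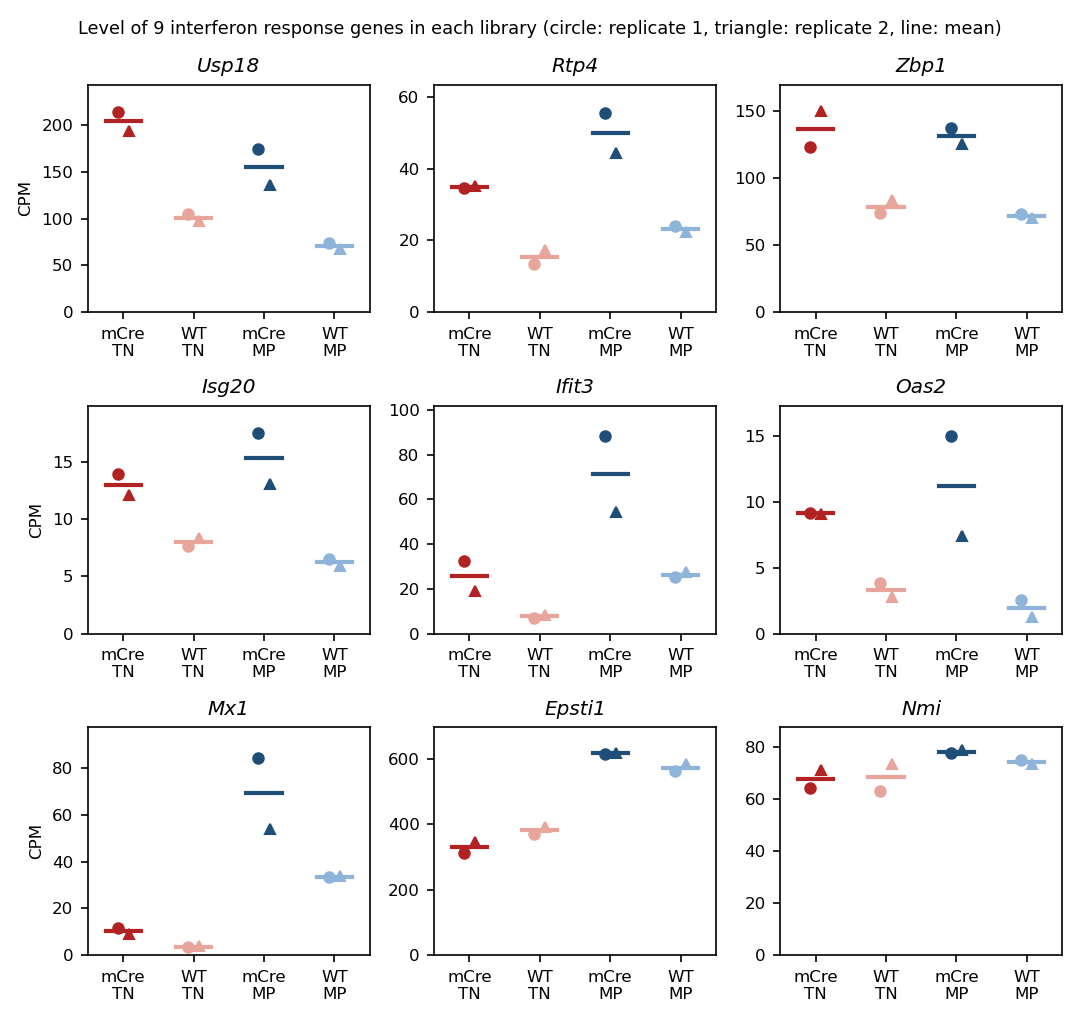
Level in each library, as CPM on linear axes that start at 0, for 9 of the genes; circles are replicate 1, triangles replicate 2 and short lines the group means (n = 2). The mCre points lie above the WT points of the same subset except for Epsti1 and Nmi in TN, and in mCre-MP the 2 libraries stand further apart for Ifit3 and Mx1 than for Rtp4.

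The Ifit genes encode proteins that bind viral RNA and hold back its translation, and they lie near each other on chromosome 19. None of the 3 was called within a subset, and 3 of 3 were called across subsets, with fold changes among the larger ones of the set. Ifit3 (chr19:34583531-34588731, plus strand in GENCODE) was at 32.4 and 19.1 CPM in mCre-TN, against 6.97 and 8.29 CPM in WT-TN, and at 88.4 and 54.2 CPM in mCre-MP, against 25.2 and 27.6 CPM in WT-MP. Ifit3b (chr19:34607970-34613401, plus strand) was at 6.72 and 4.04 CPM in mCre-TN, against 1.26 and 2.1 CPM in WT-TN, and at 21.7 and 12.2 CPM in mCre-MP, against 5.34 and 6.4 CPM in WT-MP. For both genes the mCre libraries of each subset lay above the WT libraries, and mCre-MP replicate 1 was the highest of the 8. The coding sequences of Ifit3 and Ifit3b were identical at 1201 of 1212 bases (99.1%), so reads may have been counted for either gene or dropped. Their summed level was 39.1 and 23.1 CPM in mCre-TN, against 8.24 and 10.4 CPM in WT-TN, and 110.1 and 66.4 CPM in mCre-MP, against 30.5 and 34.0 CPM in WT-MP. The sum rose across subsets by a log2 fold change of 1.55 (SE 0.270, adjusted p = 0.0263), with values of 1.73 in TN and 1.45 in MP that were not called (adjusted p = 0.19 and 0.161). Ifit1 rose across subsets by 1.32 (SE 0.214, adjusted p = 0.0195), with group means of 29.1 ± 7.84 CPM in mCre-TN and 11.6 ± 1.93 CPM in WT-TN, and 55.3 ± 17.4 CPM in mCre-MP and 21.8 ± 0.129 CPM in WT-MP (± SD of 2 libraries).

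The Oas genes, on chromosome 5, encode or resemble oligoadenylate synthetases, enzymes that answer double-stranded RNA by making the activator of RNase L. All 5 were called across subsets, 1 in TN and 2 in MP. Oas3 was at 82.9 and 78.8 CPM in mCre-TN, against 42.9 and 39.8 CPM in WT-TN, and at 169.9 and 126 CPM in mCre-MP, against 90.4 and 89.3 CPM in WT-MP. Oas1a was at 3.16 and 2.38 CPM in mCre-TN, against 1.56 and 1.72 CPM in WT-TN, and at 9.59 and 4.97 CPM in mCre-MP, against 3.81 and 3.11 CPM in WT-MP. Oas2 was at 9.15 and 9.06 CPM in mCre-TN, against 3.86 and 2.8 CPM in WT-TN, and at 15 and 7.41 CPM in mCre-MP, against 2.52 and 1.28 CPM in WT-MP. The mCre libraries lay above the WT libraries in each subset for all 3, and for Oas1a and Oas2 mCre-MP replicate 1 stood about 2-fold above replicate 2. Oas3 rose in TN by 0.96 (SE 0.154, adjusted p = 0.0363) and missed the threshold in MP at 0.72 (SE 0.137, adjusted p = 0.0558). Oas1a rose in MP by 1.05 (SE 0.271, adjusted p = 0.0371) and stood at 0.75 (SE 0.34, adjusted p = 0.267) in TN. Oas2 had the second largest fold change of the set in MP, 2.53 (SE 0.44, adjusted p = 0.0332), and 1.46 (SE 0.433, adjusted p = 0.154) in TN. Oasl2 rose across subsets by 1.65 (SE 0.257, adjusted p = 0.0179), with group means of 22.1 ± 1.09 CPM in mCre-TN and 6.9 ± 0.52 CPM in WT-TN, and 52.7 ± 22.8 CPM in mCre-MP and 16.7 ± 3.31 CPM in WT-MP (± SD of 2 libraries). Oasl1, known in mice to restrain translation of Irf7, rose across subsets by 0.91 (SE 0.261, adjusted p = 0.0433), with group means of 5.32 ± 1.74 CPM in mCre-TN and 3.33 ± 0.53 CPM in WT-TN, and 4.08 ± 2.25 CPM in mCre-MP and 1.8 ± 0.303 CPM in WT-MP; an unnamed transcript overlaps it on the opposite strand.

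Another 8 genes were grouped under antiviral effectors, and 8 of 8 were called higher in mCre across subsets, 5 in TN and 6 in MP. Trim30a, a ubiquitin ligase family gene that dampens inflammatory signalling in mice, was at 213 and 224 CPM in mCre-TN, against 166 and 166 CPM in WT-TN, and at 272 and 249 CPM in mCre-MP, against 194 and 189 CPM in WT-MP. Samd9l, a restrictor of poxvirus growth, was at 453 and 476 CPM in mCre-TN, against 353 and 369 CPM in WT-TN, and at 476 and 437 CPM in mCre-MP, against 360.3 and 351 CPM in WT-MP. Eif2ak2, the kinase PKR that stops translation on double-stranded RNA, was at 41.3 and 41.3 CPM in mCre-TN, against 29 and 29.5 CPM in WT-TN, and at 69.4 and 57.1 CPM in mCre-MP, against 42.9 and 46.6 CPM in WT-MP. These 3 genes had small changes and close replicates, and each was called in both subsets under all 16 alternatives that were tried. Trim30a rose by 0.38 (SE 0.0541, adjusted p = 0.000378) in TN and by 0.45 (SE 0.0532, adjusted p = 5.51e-05) in MP. Samd9l rose by 0.35 (SE 0.0538, adjusted p = 0.000751) in TN and by 0.36 (SE 0.0536, adjusted p = 0.000428) in MP. Eif2ak2 rose by 0.48 (SE 0.089, adjusted p = 0.00383) in TN and by 0.50 (SE 0.0808, adjusted p = 0.00106) in MP. Other annotated transcripts overlap exons of Eif2ak2 on the opposite strand, so its counts are uncertain to that extent.

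Isg20, an exonuclease that degrades viral RNA, was at 13.9 and 12.2 CPM in mCre-TN, against 7.64 and 8.39 CPM in WT-TN, and at 17.6 and 13.2 CPM in mCre-MP, against 6.54 and 5.94 CPM in WT-MP. Cmpk2, a mitochondrial nucleotide kinase, was at 20.5 and 15.6 CPM in mCre-TN, against 7.64 and 8.77 CPM in WT-TN, and at 36.8 and 26.2 CPM in mCre-MP, against 14.8 and 16.3 CPM in WT-MP. Bst2, or tetherin, which holds budding viruses on the cell surface, was at 53.6 and 53 CPM in mCre-TN, against 34.7 and 46.6 CPM in WT-TN, and at 86.6 and 75.3 CPM in mCre-MP, against 52.5 and 58.1 CPM in WT-MP. The mCre and WT libraries did not overlap in either subset for these 3 genes. In MP, Isg20 rose by 1.29 (SE 0.151, adjusted p = 4.96e-05), the smallest adjusted p of the set in that comparison, and in TN it rose by 0.69 (SE 0.154, adjusted p = 0.0154). Cmpk2 rose by 1.13 (SE 0.199, adjusted p = 0.0139) in TN and by 1.01 (SE 0.171, adjusted p = 0.00939) in MP. Bst2 was called in MP at 0.55 (SE 0.119, adjusted p = 0.0451) and was 0.36 (SE 0.129, adjusted p = 0.197) in TN.

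Rsad2, or viperin, makes a chain terminator of viral RNA synthesis and lies next to Cmpk2 on chromosome 12. It was at 11.4 and 6.63 CPM in mCre-TN, against 2.45 and 2.64 CPM in WT-TN, and at 27.9 and 18 CPM in mCre-MP, against 9.19 and 8.09 CPM in WT-MP. Mx1, a dynamin-like GTPase that blocks influenza virus and is disrupted in many laboratory strains, was at 11.8 and 9.12 CPM in mCre-TN, against 3.26 and 3.77 CPM in WT-TN, and at 84.6 and 54.1 CPM in mCre-MP, against 33.3 and 33.7 CPM in WT-MP. Neither gene was called within a subset although the mCre libraries lay above the WT libraries in both. Across subsets Rsad2 rose by 1.55 (SE 0.234, adjusted p = 0.00756) and Mx1 by 1.17 (SE 0.211, adjusted p = 0.0262).

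ISG15 is a ubiquitin-like modifier that is attached to proteins during the response, Herc6 is its main ligase in mice, and Usp18 removes it and also blocks signalling at IFNAR2. All 3 genes rose across subsets. Usp18 was at 214 and 194 CPM in mCre-TN, against 105 and 97.1 CPM in WT-TN, and at 174 and 136 CPM in mCre-MP, against 73.7 and 67.9 CPM in WT-MP. Herc6 was at 66 and 65.5 CPM in mCre-TN, against 55.6 and 56.8 CPM in WT-TN, and at 91.4 and 76.1 CPM in mCre-MP, against 64.4 and 63.1 CPM in WT-MP. In both subsets the mCre libraries of these genes exceeded the WT libraries, and for Usp18 each TN library exceeded each MP library of its genotype. Usp18 rose by 1.00 (SE 0.12, adjusted p = 0.00804) in TN and by 1.13 (SE 0.121, adjusted p = 0.00436) in MP. Herc6 was called in MP (0.39, SE 0.0699, adjusted p = 0.00248) and was 0.21 (SE 0.0732, adjusted p = 0.13) in TN; without mCre-MP replicate 1 its adjusted p in MP was 0.08. Isg15 rose across subsets by 1.16 (SE 0.191, adjusted p = 0.0132), with group means of 16.9 ± 2.27 CPM in mCre-TN and 8.19 ± 2.04 CPM in WT-TN, and 35.5 ± 11.6 CPM in mCre-MP and 14.7 ± 0.254 CPM in WT-MP (± SD of 2 libraries). Unnamed transcripts overlap Usp18 on the opposite strand and Herc6 on the same strand.

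The genes of ADP-ribosylation rose by small amounts, and 4 of 4 were called across subsets. Parp14, a mono-ADP-ribosyl transferase, was at 171 and 201 CPM in mCre-TN, against 145 and 150.3 CPM in WT-TN, and at 217 and 194 CPM in mCre-MP, against 161 and 152 CPM in WT-MP. Parp9, which acts in a complex with the ubiquitin ligase encoded by Dtx3l, was at 123 and 154 CPM in mCre-TN, against 86.7 and 98.9 CPM in WT-TN, and at 138 and 136 CPM in mCre-MP, against 89.2 and 83.7 CPM in WT-MP. Both mCre libraries lay above both WT libraries of their subset for each gene. Parp14 rose by 0.32 (SE 0.0775, adjusted p = 0.0457) in TN and by 0.39 (SE 0.0765, adjusted p = 0.0119) in MP. Parp9 was called in MP (0.66, SE 0.115, adjusted p = 0.0273) and was 0.56 (SE 0.116, adjusted p = 0.0551) in TN. Parp12 and Dtx3l were called across subsets alone, at 0.40 (SE 0.0809, adjusted p = 0.00323) and 0.38 (SE 0.0711, adjusted p = 0.0115). Parp12 had group means of 19.3 ± 3.81 CPM in mCre-TN and 14.2 ± 0.0247 CPM in WT-TN, and 37.3 ± 4.28 CPM in mCre-MP and 28.5 ± 0.69 CPM in WT-MP, and Dtx3l of 189 ± 31 CPM in mCre-TN and 141 ± 6.05 CPM in WT-TN, and 187 ± 12 CPM in mCre-MP and 147 ± 3.53 CPM in WT-MP (± SD of 2 libraries). Exons of Parp9 and Dtx3l overlap on opposite strands, so part of their counts may be shared. An unnamed transcript overlaps exons of Parp14 on the same strand.

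Of the remaining 7 genes, 5 were called higher across subsets. Rtp4, a receptor chaperone that restrains the interferon response in mice (chr16:23520291-23614222, plus strand), was at 34.7 and 35.3 CPM in mCre-TN, against 13.3 and 17.4 CPM in WT-TN, and at 55.6 and 44.2 CPM in mCre-MP, against 24 and 22.3 CPM in WT-MP. Xaf1, a partner of the apoptosis inhibitor XIAP, was at 28.2 and 34.5 CPM in mCre-TN, against 16.2 and 21.7 CPM in WT-TN, and at 39.9 and 33.3 CPM in mCre-MP, against 22.6 and 21.7 CPM in WT-MP. Each mCre library lay above both WT libraries of its subset, and for Rtp4 the mCre mean was more than 2-fold that of WT in both. Rtp4 rose by 1.15 (SE 0.129, adjusted p = 0.000243) in TN and by 1.11 (SE 0.116, adjusted p = 0.000104) in MP, and was called under all 16 alternatives in each subset. An unnamed transcript overlaps exons of Rtp4 on the same strand, so its counts are uncertain to that extent. Xaf1 rose by 0.68 (SE 0.148, adjusted p = 0.0319) in TN and by 0.72 (SE 0.139, adjusted p = 0.0171) in MP.

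Ifi44 had few reads, at 0.632 and 0.622 CPM in mCre-TN, against 0.223 and 0.108 CPM in WT-TN, and at 0.817 and 0.611 CPM in mCre-MP, against 0.128 and 0.0457 CPM in WT-MP. Its summed counts were 31 in mCre-TN and 5 in WT-TN, a depth-corrected ratio of 4.03 (95% interval 1.55 to 13.3, exact and for counting error only), and 30 in mCre-MP and 4 in WT-MP, a ratio of 7.91 (2.79 to 30.9). The fitted log2 fold change was called in MP at 2.92 (SE 0.716, adjusted p = 0.0256), the largest of the set, and was 1.95 (SE 0.706, adjusted p = 0.148) in TN. Ifi27l2a rose across subsets by 1.88 (SE 0.287, adjusted p = 0.0174), with group means of 35.4 ± 13.2 CPM in mCre-TN and 11.1 ± 0.202 CPM in WT-TN, and 47.4 ± 16.8 CPM in mCre-MP and 11.4 ± 1.71 CPM in WT-MP (± SD of 2 libraries). Ifi35 rose across subsets by 0.20 (SE 0.0434, adjusted p = 0.00485), with group means of 68.1 ± 0.802 CPM in mCre-TN and 59.1 ± 0.494 CPM in WT-TN, and 77.5 ± 6.18 CPM in mCre-MP and 67.1 ± 0.994 CPM in WT-MP (± SD of 2 libraries). An unnamed transcript overlaps exons of Ifi35 on the opposite strand.

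Epsti1 and Nmi stood apart from the other 35. Epsti1, named for its induction in epithelial cells grown with stromal cells (chr14:77904239-78002657, plus strand), was at 312 and 346 CPM in mCre-TN, against 371 and 392 CPM in WT-TN, and at 616 and 617 CPM in mCre-MP, against 562 and 584 CPM in WT-MP. Both mCre-TN libraries lay below both WT-TN libraries, while both mCre-MP libraries lay above both WT-MP libraries. Epsti1 fell in TN at −0.23 (SE 0.0556, adjusted p = 0.0249) and was 0.11 (SE 0.0548, adjusted p = 0.323) in MP; the call in TN was lost without mCre-TN replicate 1 or WT-TN replicate 2 (highest adjusted p 0.285). Nmi, which encodes a partner of STAT proteins and of the Ifi35 product, had group means of 67.8 ± 4.82 CPM in mCre-TN and 68.4 ± 7.17 CPM in WT-TN, and 78.3 ± 0.865 CPM in mCre-MP and 74.3 ± 1.03 CPM in WT-MP (± SD of 2 libraries). Its log2 fold changes were −0.04 (SE 0.0702, adjusted p = 0.847) in TN and 0.08 (SE 0.0678, adjusted p = 0.616) in MP.

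Whether the genotype difference itself depended on subset was tested as the difference between the MP and the TN fold changes. Of the 37 genes, 0 were called in either direction, when 0.0487% of all tested genes were called higher and 0.0812% lower. At an unadjusted p under 0.05, 2 were higher, Epsti1 (log2 difference 0.34, adjusted p = 0.159) and Isg20 (0.60, adjusted p = 0.7), and 0 were lower. DESeq2 called 1, Epsti1, with an adjusted p of 0.044, as did edgeR with no filter on low counts (adjusted p = 0.00531). Without mCre-MP replicate 1, Oas3 was called at −0.48 (adjusted p = 0.027). The median difference over the 37 genes was 0.08, against 0.0058 over all tested genes. Without mCre-MP replicate 1 that median was −0.07. These values do not show that the genotype difference was equal in the subsets.

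**Figure D3:**
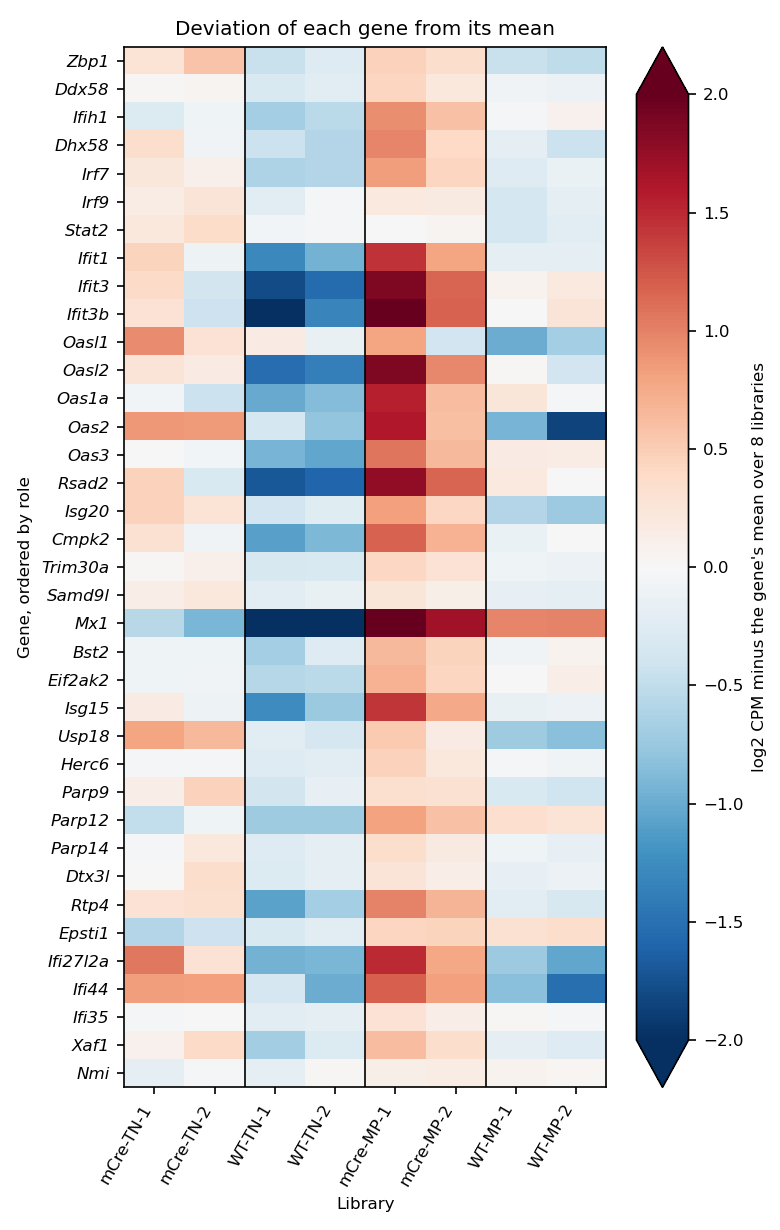
Deviation of each gene in each library from its mean log2 CPM over the 8 libraries (color scale, log2 units), genes in rows by role. Most genes are highest in mCre-MP replicate 1 and lowest in a WT-TN library.

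The libraries of a group did not carry the set at the same level. The median deviation of the 37 genes from their own mean over the 8 libraries was 0.81 and 0.42 log2 units in mCre-MP, 0.15 and 0.06 in mCre-TN, −0.13 and −0.12 in WT-MP, and −0.45 and −0.53 in WT-TN. In mCre-MP, replicate 1 exceeded replicate 2 for 34 of 37 genes by a median of 0.33 log2 units, while 50.2% of all tested genes were higher in replicate 1. Replicate 1 was the higher for 20 of 37 genes in mCre-TN, 6 of 37 in WT-TN and 23 of 37 in WT-MP. Without mCre-MP replicate 1 the median log2 fold change of the set in MP was 0.58, and without mCre-MP replicate 2 it was 0.94.

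MP cells had higher levels than TN cells for part of the set and lower levels for a few genes; these changes are log2 fold changes of MP over TN. In mCre, 19 of the 37 genes were called higher in MP and 1 lower, when 17% of all tested genes were called higher and 15.5% lower. In WT, 15 were called higher in MP and 2 lower, when 16.2% and 15.6% of all tested genes were. The median log2 fold change was 0.42 in mCre and 0.22 in WT, against 0.0024 and −0.0019 over all tested genes. The 15 genes called higher in WT were among the 19 called higher in mCre; the comparisons use different libraries but a single estimate of spread. In WT, 9 genes were called higher without WT-TN replicate 1 or without either WT-MP library, and in mCre the median was 0.24 without mCre-MP replicate 1 and 0.70 without mCre-MP replicate 2.

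Mx1, Rsad2, Ifit3b, Ifit3, Oas1a and Oas3 were among the genes with the largest subset differences, and the Oas family was divided. Mx1 was at 84.6 and 54.1 CPM in mCre-MP, against 11.8 and 9.12 CPM in mCre-TN, and at 33.3 and 33.7 CPM in WT-MP, against 3.26 and 3.77 CPM in WT-TN. Its log2 fold change of MP over TN was 2.73 (SE 0.267, adjusted p = 0.00129) in mCre and 3.25 (SE 0.358, adjusted p = 0.00213) in WT. Ifit3b rose in MP by 1.64 (SE 0.349, adjusted p = 0.0121) in mCre and by 1.77 (SE 0.481, adjusted p = 0.0321) in WT, and Ifit3 by 1.47 (SE 0.358, adjusted p = 0.0428) in mCre, with 1.79 (SE 0.478, adjusted p = 0.0559) in WT. Every MP library of these genes lay above each TN library of its genotype.

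Rsad2 rose in MP by 1.34 (SE 0.289, adjusted p = 0.0136) in mCre and by 1.77 (SE 0.401, adjusted p = 0.0168) in WT. Oas1a rose by 1.38 (SE 0.275, adjusted p = 0.000832) in mCre and by 1.08 (SE 0.335, adjusted p = 0.0198) in WT, and Oas3 by 0.90 (SE 0.138, adjusted p = 0.00443) in mCre and by 1.14 (SE 0.154, adjusted p = 0.00267) in WT. The other Oas genes were not called: Oasl2 stood at 1.27 in mCre and 1.28 in WT, Oas2 at 0.31 in mCre and −0.76 in WT, and Oasl1 at −0.41 in mCre and −0.86 in WT. Epsti1, which did not follow the rest of the set between genotypes, was called higher in MP in both genotypes, by 0.94 (SE 0.0555, adjusted p = 9.8e-11) in mCre and by 0.60 (SE 0.0555, adjusted p = 6.7e-08) in WT. Parp12, at 0.99 in mCre and 1.02 in WT, and Eif2ak2, at 0.64 in mCre and 0.63 in WT, were also called higher in both.

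Stat2 ran the other way and fell in MP, with log2 fold changes of −0.25 (SE 0.0653, adjusted p = 0.0058) in mCre and −0.23 (SE 0.069, adjusted p = 0.014) in WT. Usp18 fell in WT at −0.49 (SE 0.124, adjusted p = 0.0236) and was −0.37 (SE 0.116, adjusted p = 0.0515) in mCre. Genes with genotype changes in both subsets could lack a subset difference: the log2 fold change of Samd9l was 0.01 (SE 0.0534, adjusted p = 0.949) in mCre and −0.01 (SE 0.0539, adjusted p = 0.948) in WT, and that of Zbp1 −0.02 (SE 0.101, adjusted p = 0.902) in mCre and −0.13 (SE 0.109, adjusted p = 0.434) in WT.

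**Figure D4:**
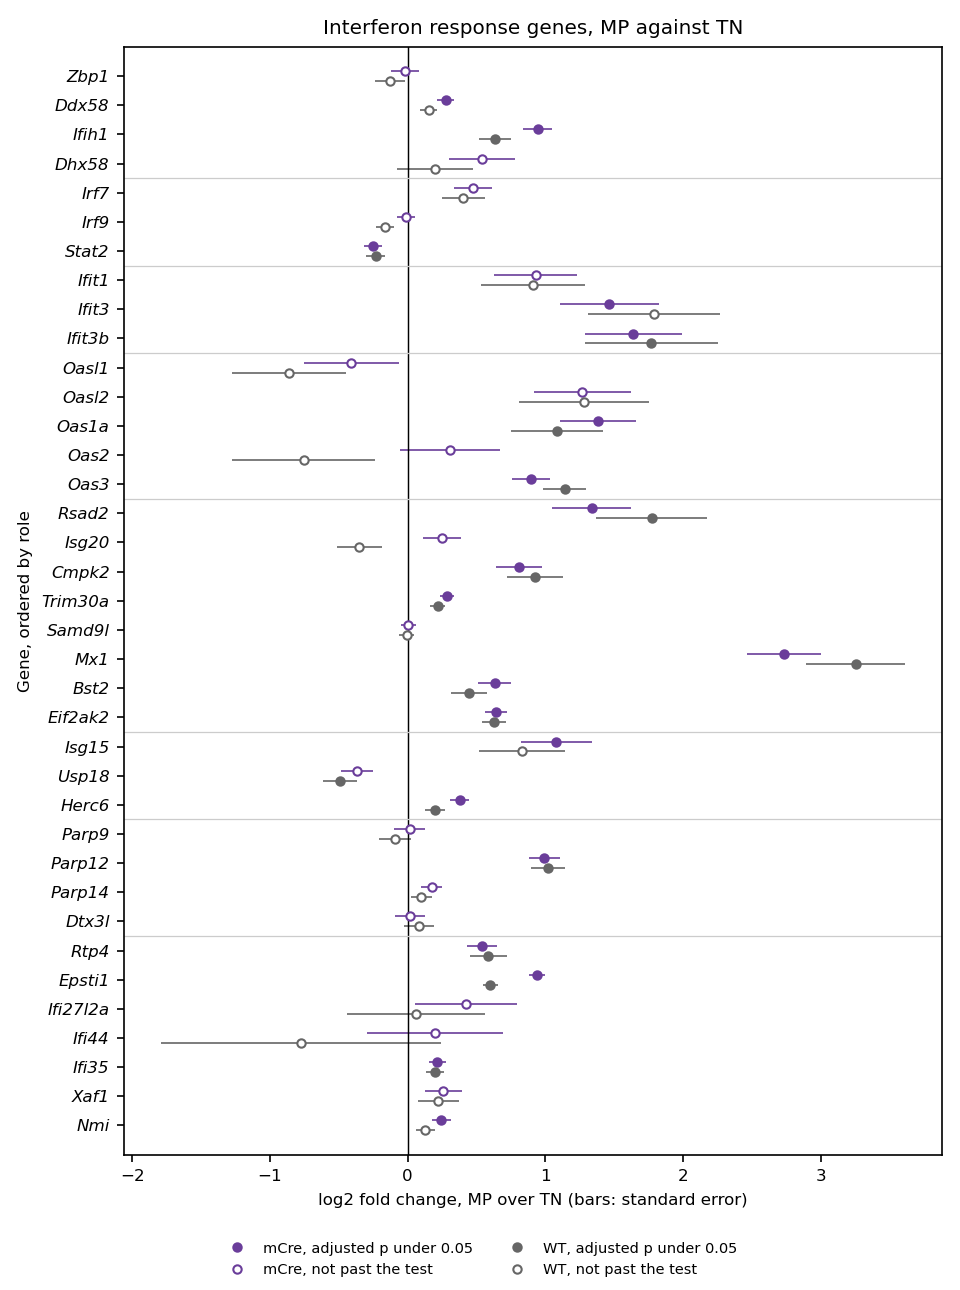
Log2 fold change of MP over TN in mCre and in WT for each of the 37 genes, with bars giving the standard error and filled points called at an adjusted p under 0.05. Mx1 lies furthest to the right in both genotypes, and Stat2 lies left of 0 in both.

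Of 16 tested genes of the interferon receptors and their signal chain, 0 were called higher in mCre across subsets and 2 lower, when 5.06% of all tested genes were called higher and 5.97% lower, and the median log2 fold change of the list was 0.02. Neither receptor chain was called. Ifnar1 was at 186 and 183 CPM in mCre-TN, against 183 and 190.0 CPM in WT-TN, and at 218 and 195 CPM in mCre-MP, against 209 and 218 CPM in WT-MP. Ifnar2 was at 63.6 and 67.2 CPM in mCre-TN, against 69.7 and 65 CPM in WT-TN, and at 106 and 100.5 CPM in mCre-MP, against 113 and 107 CPM in WT-MP. Their log2 fold changes across subsets were −0.04 (SE 0.0388, adjusted p = 0.599) and −0.08 (SE 0.0411, adjusted p = 0.271), and those of the kinases Jak1 and Tyk2 were 0.04 (SE 0.0345, adjusted p = 0.511) and 0.01 (SE 0.0366, adjusted p = 0.875).

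The genes of this list called lower were Ifngr1, part of the receptor for interferon gamma (−0.24, SE 0.0399, adjusted p = 0.000416), and Ptpn2, a phosphatase that acts on JAK and STAT proteins (−0.14, SE 0.0409, adjusted p = 0.036).

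The interferon genes themselves were hardly detected. Of 21 ligand genes in the table, 16 had 0 counts in every library, Ifnb1 among them, and 1, Ifng, had enough reads to be tested. Ifng, the type II interferon of T and NK cells, was at 0.166 and 0.207 CPM in mCre-TN, against 0.742 and 0.269 CPM in WT-TN, and at 30.4 and 26.9 CPM in mCre-MP, against 35.2 and 27 CPM in WT-MP, with no call between genotypes (−0.17, SE 0.146, adjusted p = 0.529 across subsets). The counts are of the sorted cells and do not cover interferon made by other cells of the spleen.

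Of 23 tested genes of nucleic acid sensing outside the set, 4 were called higher in mCre across subsets and 2 lower. Over all tested genes, 5.06% were called higher and 5.97% lower. Tlr7, the endosomal receptor for single-stranded RNA, was at 10.8 and 10.9 CPM in mCre-TN, against 6.08 and 7.42 CPM in WT-TN, and at 24.8 and 17 CPM in mCre-MP, against 7.95 and 7.04 CPM in WT-MP. Its mCre libraries lay above its WT libraries in both subsets, and its log2 fold change was 1.47 (SE 0.163, adjusted p = 5.06e-05) in MP and 0.65 (SE 0.179, adjusted p = 0.055) in TN. Trim25, which ubiquitinates RIG-I, rose by 0.32 (SE 0.043, adjusted p = 3.58e-05) across subsets and Adar, which edits double-stranded RNA and is itself induced by interferon, by 0.28 (SE 0.0458, adjusted p = 0.000404). Aim2, a sensor of cytosolic DNA, fell in TN at −0.59 (SE 0.0897, adjusted p = 0.00114) and was 0.05 (SE 0.0946, adjusted p = 0.849) in MP. Rnaseh2c, a subunit of an RNase H enzyme, fell in TN at −0.33 (SE 0.0866, adjusted p = 0.0397) and across subsets at −0.21 (SE 0.065, adjusted p = 0.0446). The other genes called across subsets were Traf3, an adaptor of interferon induction, which rose (0.12, SE 0.0382, adjusted p = 0.0466), and Irf3, the factor that starts interferon transcription, which fell (−0.12, SE 0.0371, adjusted p = 0.0372).

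A list of 76 other interferon-induced genes had 67 tested members, of which 12 were called higher and 0 lower in TN, 21 and 0 in MP, and 26 and 1 across subsets. Their median log2 fold changes were 0.28, 0.36 and 0.31. Of all tested genes, 1.55% were called higher and 1.92% lower in TN, and 2.08% and 1.97% in MP. Across subsets the shares were 5.06% and 5.97%. Pml, the organizer of PML nuclear bodies, was at 117 and 118 CPM in mCre-TN, against 76.3 and 75.5 CPM in WT-TN, and at 123 and 99.7 CPM in mCre-MP, against 73.2 and 69.8 CPM in WT-MP. Trafd1, a feedback regulator of innate signalling, was at 56.4 and 58.2 CPM in mCre-TN, against 37.9 and 40.8 CPM in WT-TN, and at 77.6 and 65.2 CPM in mCre-MP, against 43.4 and 45.1 CPM in WT-MP. The mCre and WT libraries did not overlap for either gene in either subset. Pml rose by 0.62 (SE 0.0793, adjusted p = 0.000638) in TN and by 0.64 (SE 0.0781, adjusted p = 0.000348) in MP, and Trafd1 by 0.52 (SE 0.0799, adjusted p = 0.000751) and 0.69 (SE 0.076, adjusted p = 2.64e-05). Lgals3bp, a secreted glycoprotein, rose in TN by 0.47 (SE 0.0719, adjusted p = 0.00204) and Ifi27 by 0.33 (SE 0.059, adjusted p = 0.00265). Tdrd7 was the gene called lower across subsets (−0.39, SE 0.105, adjusted p = 0.019).

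**Figure D5:**
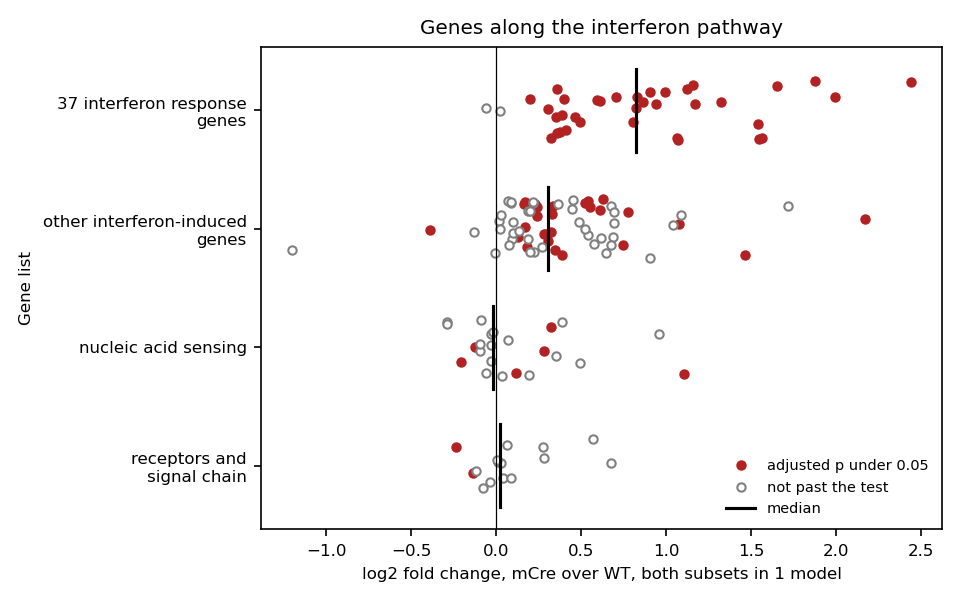
Log2 fold change of mCre over WT across subsets for the tested genes of the 37-gene set and of 3 other lists (receptors and signal chain, nucleic acid sensing, other interferon-induced genes); each point is a gene, filled where called, and the line is the median. The 37 genes have a median of 0.82 and the receptor list a median of 0.02.

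Markers of other cell types were read beside these results. Summed levels of 8 red-pulp macrophage genes were 12.6 and 10.4 CPM in mCre-TN, against 34.1 and 22.3 CPM in WT-TN, and 12.3 and 13.7 CPM in mCre-MP, against 35.8 and 20.2 CPM in WT-MP. These genes were thus lower where the interferon set was higher. Across subsets 7 of 8 were called lower in mCre, against 5.97% of all tested genes, and their part in the result was not tested. The 6 plasmacytoid dendritic cell markers, without Bst2 and the T cell gene Ccr9, summed to 32.0 and 28.5 CPM in mCre-TN, against 20.3 and 16.2 CPM in WT-TN, and to 93.7 and 93.1 CPM in mCre-MP, against 77.2 and 79.8 CPM in WT-MP. Of these 6 markers 3 had enough reads to be tested, Tcf4, Runx2 and Ly6d. Across subsets 3 of 3 were called higher in mCre, against 5.06% of all tested genes, in the same direction as the interferon set. Their part in the result was not tested. Most of the sum was Tcf4 and Runx2, which ran in opposite ways between subsets. The log2 fold change of MP over TN was 3.03 in mCre and 3.32 in WT for Runx2, and −2.63 and −1.95 for Tcf4. The defining marker Siglech, with too few reads to be tested, was at most 0.371 CPM in any library, in WT-TN replicate 1. Cox6a2 and Klk1 also had too few reads to be tested. B cell markers summed to 34.5 to 46.0 CPM and myeloid markers to 69.4 to 90.1 CPM over the 8 libraries. Most of the myeloid sum was Cst3. Of 7 tested myeloid markers, 1, Csf1r, was called lower in mCre across subsets (−1.32, SE 0.222, adjusted p = 0.0021) and 0 higher. NK cell markers summed to 184 to 228 CPM in MP and 31.4 to 50.2 CPM in TN. Nearly all of that sum was Eomes. Ncr1, Klrb1c and Klra8 had 0 counts in TN and were each at most 2.74 CPM in MP. Red cell and platelet markers summed to 22.2 to 56.0 CPM in the mCre libraries and 11.9 to 21.2 CPM in the WT libraries. The part of these markers in the results was not tested.

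The series is about miR-29, so the sequence that pairs with its seed was looked for in the set. The seed, in capitals, is shown in the mature sequence from RefSeq (GRCm38.p6):
mmu-miR-29a-3p, chr6:31062673-31062694, minus strand: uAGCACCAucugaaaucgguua

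The matching run TGGTGCT was present in the longest annotated 3′ UTR of 2 of the 37 genes (5.41%), Rsad2 and Ddx58, and of 1798 of 11648 tested genes with a UTR of at least 30 bases (15.4%). A run of these letters is a description of the annotated UTR and not a measured target site.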

How the data were processed

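The authors deposited unnormalized read counts for 8 libraries, with 1 line per gene symbol and 0 lines without a name. Per the submitters' processing notes, reads were handled with Trim Galore, HISAT2 and featureCounts on build mm10. The sources used here do not state versions, the gene annotation, whether strand was used, or how multi-mapping reads were counted. Per the labels' protocols, the RNA was a Trizol extract and the library kit keeps strand.

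Tests on counts used edgeR 4.0.16 (quasi-likelihood, R 4.3.3) after TMM scaling and edgeR's expression filter, with robust dispersions. All 8 libraries shared a single fit of 4 group means, and the comparison across subsets used genotype plus subset. Tests were two-sided, with Benjamini-Hochberg adjustment over 12313 genes and a threshold of 0.05; log2 CPM used a prior count of 2, and TMM factors lay between 0.99 and 1.02. The procedure was tested on simulated counts. Limma 3.58.1 (voom), DESeq2 1.42.0, other scalings and filters, a replicate block and leaving out each library were alternatives.

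The 37 genes and the other lists were chosen with earlier results of these data known. Values per library are given for genes called between genotypes in TN or MP, and for up to 5 called genes per direction between subsets; other genes are given by group means, and from the other lists the 4 smallest p in TN. Other genes named with values were chosen after their values were seen, and some genes of the lists are not reported here. Promoter and microRNA sequences came from RefSeq (GRCm38.p6), gene positions and UTRs from GENCODE M21 on GRCm38. Figures were drawn with matplotlib 3.10.9 in Python 3.11.15.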

Additional observations from a re-analysis of the deposited data

Results flagged for a closer look

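Epsti1 had genotype fold changes of opposite sign in the 2 subsets. Its MP change (log2 fold change 0.11) and the difference between the subsets were not called. It was at 312 and 346 CPM in mCre-TN, against 371 and 392 CPM in WT-TN, and at 616 and 617 CPM in mCre-MP, against 562 and 584 CPM in WT-MP. The libraries did not overlap in either subset, and in MP 24.1% of all tested genes had both mCre libraries above both WT libraries. The difference between the log2 fold changes in MP and TN was 0.34 (adjusted p = 0.159 over all genes by edgeR's quasi-likelihood test), and over the alternatives its adjusted p lay between 0.00531 and 0.636. No other gene of the 37 had libraries ordered in opposite ways in the subsets.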

How the results depend on the processing

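No value changed sign under any of the 16 alternatives where it had been called. With each library left out in turn, genes of the set called higher in mCre numbered 5 to 24 in TN and 10 to 28 in MP, and genes called lower in TN 0 to 1; all genes called numbered 204 to 446 in TN, 195 to 593 in MP and 855 to 1198 across subsets. The median of the set then lay between 0.58 and 0.94 in MP and between 0.64 and 0.88 across subsets. Between subsets, 9 to 21 genes of the set were called higher and 0 to 4 lower in WT, 0 to 2 lower in mCre, and the mCre median lay between 0.24 and 0.70. In the interaction 0 to 1 were called lower, and 9 to 32 of all genes. With no filter on low counts, genes of the set called were 26 higher in TN, 4 lower in MP against TN in WT, 2 lower in mCre and 1 higher in the interaction, and all genes called were 783 in TN, 888 in MP and 81 in the interaction. DESeq2 called 25 of the set higher in TN, 2 lower in MP against TN in mCre, and 1 higher and 26 of all genes in the interaction. Voom called 2 lower in mCre and 7 of all genes in the interaction. Scaling by total counts and the stricter filter each called 2 lower in mCre. Fitting the TN libraries alone called 23 of the set higher.

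Nothing in the labels says that replicate numbers pair the libraries, and 2 numbers cannot settle it: over genes, deviations of same-numbered libraries correlated at 0.0769 between mCre-MP and mCre-TN and 0.109 between WT-MP and WT-TN, and between −0.0446 and −0.0139 across genotypes. With the replicate block, 5 genes of the set were called lower in MP against TN in WT and 2 in mCre. The block was a single effect shared by all groups, so it did not model animals within a genotype. Calls held under every alternative for 4 of 15 genes in TN, 8 of 21 in MP and 22 of 35 across subsets. With 2 libraries a group, genes under a few CPM, such as Ifi44, are limited by depth.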
